A study of Mus musculus with 4 samples.

Results

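Receptors, secreted antagonists, feedback genes and TCF factors of the Wnt pathway were examined in 2 mouse keratinocyte lines, MK1 and MK2. The 10 genes were Fzd6, Fzd10, Dkk1, Dkk3, Sfrp1, Rnf43, Axin2, Nkd1, Tcf7l1 and Tcf7l2. They were taken by gene name, and all 10 were found among the 23420 gene rows of the count table. RNA had been sequenced from 2 biological replicate cultures of each line, with 25237391 to 30261111 counts per library. Keratinocytes are the epithelial cells of the epidermis, and the series concerns p63, a transcription factor of stratified epithelia, in mouse and human. The labels give a line name and a cell type only, with no genotype, strain, sex, age, treatment, passage or culture time. Each group is a single line, and the spread behind every p-value is that between its cultures, not between lines of mouse keratinocytes.

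In canonical Wnt signalling, secreted Wnt proteins bind Frizzled receptors together with LRP co-receptors, which stabilises beta-catenin and lets it act with TCF/LEF factors on target genes. Several targets feed back on the pathway. Axin2 is a scaffold of the complex that degrades beta-catenin, Rnf43 is a membrane ubiquitin ligase that removes Frizzled receptors, Nkd1 binds Dishevelled, and Dkk1 is a secreted antagonist that binds LRP co-receptors. In skin the pathway is known for its role in hair follicle formation and in the upkeep of epidermal stem cells.

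RefSeq promoter windows on GRCm38.p6, the assembly also called mm10, were held for 7 of the 10 genes, with 9 windows among them. Each window runs from 250 bases before a transcription start to 50 bases after it. The bases upstream of the start are printed for Fzd10 and Rnf43, which were lower in MK2 by the largest factors, for Axin2, which was not called, and for Dkk1, whose window held the motif searched. The motif was the TCF/LEF core, the letters CTTTG followed by AA, AT, TA or TT, on either strand, and capitals mark its matches. The spans, on the gene's strand, are chr5:128600856-128601105 (plus), chr11:87662837-87663086 (plus), chr11:108920099-108920348 (plus) and chr19:30549497-30549746 (minus).
Fzd10: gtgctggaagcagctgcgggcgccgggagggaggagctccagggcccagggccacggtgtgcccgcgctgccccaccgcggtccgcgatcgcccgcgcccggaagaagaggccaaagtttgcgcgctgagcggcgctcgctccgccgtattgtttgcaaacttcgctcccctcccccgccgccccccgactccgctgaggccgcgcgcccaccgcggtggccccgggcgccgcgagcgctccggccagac
Rnf43: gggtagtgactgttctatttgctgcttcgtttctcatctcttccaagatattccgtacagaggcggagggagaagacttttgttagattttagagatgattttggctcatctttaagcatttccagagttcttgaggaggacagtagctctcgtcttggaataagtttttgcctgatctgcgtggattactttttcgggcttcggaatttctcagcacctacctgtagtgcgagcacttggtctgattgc
Axin2: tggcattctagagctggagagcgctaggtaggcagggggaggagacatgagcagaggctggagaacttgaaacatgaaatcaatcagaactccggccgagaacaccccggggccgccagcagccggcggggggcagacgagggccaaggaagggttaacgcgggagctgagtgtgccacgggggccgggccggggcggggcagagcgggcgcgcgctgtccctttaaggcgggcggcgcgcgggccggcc
Dkk1: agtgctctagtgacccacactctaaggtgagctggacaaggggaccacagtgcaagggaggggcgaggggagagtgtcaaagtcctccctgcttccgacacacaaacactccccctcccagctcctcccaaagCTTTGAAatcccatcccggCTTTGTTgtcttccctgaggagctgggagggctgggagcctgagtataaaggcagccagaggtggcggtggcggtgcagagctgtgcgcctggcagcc

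The transcription starts of these 4 windows are the gene starts of the deposited table, and for Rnf43 a second window at an internal start was not printed. A match to the motif stood in 16.9% of all 32851 windows of this length. The Dkk1 window held 2 matches, CTTTGAA and CTTTGTT, and 1 of the 2 Tcf7l2 windows, at an internal start, held CTTTGTT. No match was found in the windows of Fzd10, Rnf43, Axin2, Tcf7l1 or Nkd1. The only Nkd1 window stood at an internal start, 6289 bases from the gene start of the deposited table, so the sequence before that gene start was not searched. The windows also differed in CpG content, a feature looked at after the expression values were known. Fzd10 had 45 CpG dinucleotides in 300 bases, Axin2 had 31, and Rnf43 and Dkk1 had 10 and 9, against a median of 7 over all windows and 20 or more in 26.5% of them. Tcf7l1 had 34, and Tcf7l2 had 34 at its gene start and 7 at the internal start. The internal windows of Nkd1 and Rnf43 had 6 and 3. Fzd10 and Rnf43, the pair lowest in MK2 relative to MK1, thus stood well apart in CpG content. A link between CpG content and the changes was not tested.

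Of the 10 genes, 7 had enough counts to be tested for a difference between the lines, and Dkk1, Sfrp1 and Nkd1 did not. In edgeR's quasi-likelihood test, adjusted over all 12479 genes tested, 1 of the 7 rose in MK2, 3 fell and 3 did not pass. Of all tested genes 54.6% passed, 25.9% higher and 28.6% lower, so that 4 of 7 is about the share of the whole table. A stricter test for changes beyond 2-fold called 3 of the 7, Fzd10 and Rnf43 lower and Dkk3 higher, where 13.3% of all genes were called, 3.25% higher and 10.1% lower. The median log2 change of the 7 was -0.46, against -0.01 over all tested genes. Fzd10 and Rnf43 passed the count filter through MK1 alone and Dkk3 through MK2 alone, so each of them could be found different in 1 direction only. In bulk RNA, fewer cells with a transcript and less of it per cell cannot be told apart.

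**Figure D1:**
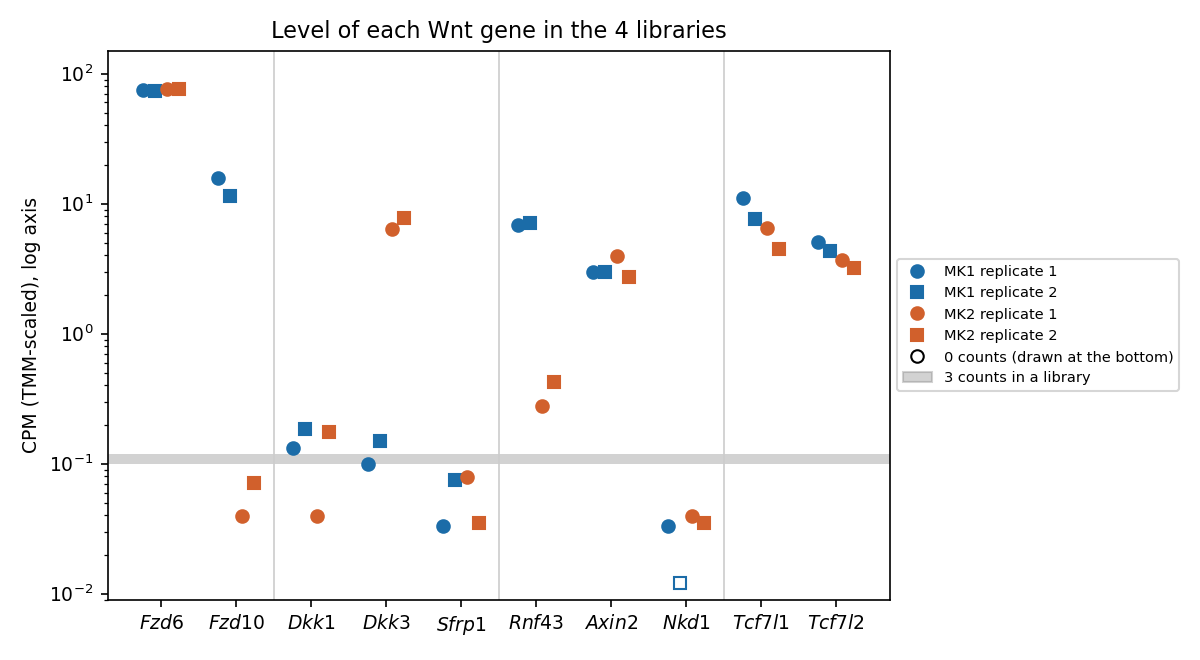
Read counts per 1e6 counts (CPM, scaled by TMM, log axis) of the 10 genes in each library, grouped as receptors, antagonists, feedback genes and TCF factors. Points are single cultures, blue for MK1 and orange for MK2, and the grey band is the level of 3 counts in a library. Fzd6 sits between 73.2 and 76.2 CPM in every library, Fzd10 and Rnf43 are lower in both MK2 cultures, Dkk3 is higher in both, and Dkk1, Sfrp1 and Nkd1 lie near or under the band.

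Among the Frizzled receptors, Fzd6 was level between the lines and Fzd10 was nearly without counts in MK2. Fzd6 (chromosome 15, 39006280 to 39038190, mm10, 7 exons) is a receptor known for planar cell polarity and hair patterning in mouse skin. It had 2279 and 1965 counts in the MK1 replicates and 1918 and 2141 in MK2, or 74.97 and 73.18 CPM against 76.21 and 75.52 CPM. The unit CPM scales each library to 1e6 counts. The 4 cultures lay within a few CPM of each other, and the MK1 replicates differed from each other by about as much as the means of the lines did. The log2 change was 0.03 (95% interval -0.20 to 0.27, adjusted p = 0.787 by edgeR), and its sign turned with another scaling, upper-quartile factors (-0.023).

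Fzd10 (chromosome 5, 128601106 to 128604093, 1 exon) encodes another receptor of the family and lies in a single exon, next to the CpG-dense sequence printed above. It had 479 and 306 counts in MK1 and 1 and 2 in MK2, or 15.8 and 11.4 CPM against 0.0397 and 0.0705 CPM. Both MK2 cultures lay below the level of 3 counts, and the groups were far from overlapping. Over the summed counts of a line, 785 against 3, Fzd10 was 245-fold lower in MK2, with a 95% counting interval of 83.4 to 1189. The change passed the test (adjusted p = 2.91e-05 by edgeR), also beyond 2-fold (adjusted p = 4.28e-05), and with any 1 library left out (adjusted p = 3.69e-05 to 9.64e-04).

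Per unit of gene length, Fzd6 was the most abundant of the 10 Frizzled genes in every library. In TPM, read counts per base of gene scaled to a common sum, it stood at 38.3 and 36.6 in MK1 and 37.2 and 36.1 in MK2. Fzd10 stood at 11.2 and 7.89 TPM in MK1, among the 4 most abundant of the family with Fzd6, Fzd2 and Fzd1, and at 0.0268 and 0.0468 TPM in MK2. The summed Frizzled level was 84.0 and 78.1 TPM in MK1 and 55.2 and 61.3 TPM in MK2. Fzd6 made up 45.6% and 46.8% of that sum in MK1 and 67.4% and 59.0% in MK2, at a level of its own that differed little. Fzd10 made up 13.3% and 10.1% in MK1 and 0.0486% and 0.0763% in MK2.

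**Figure D2:**
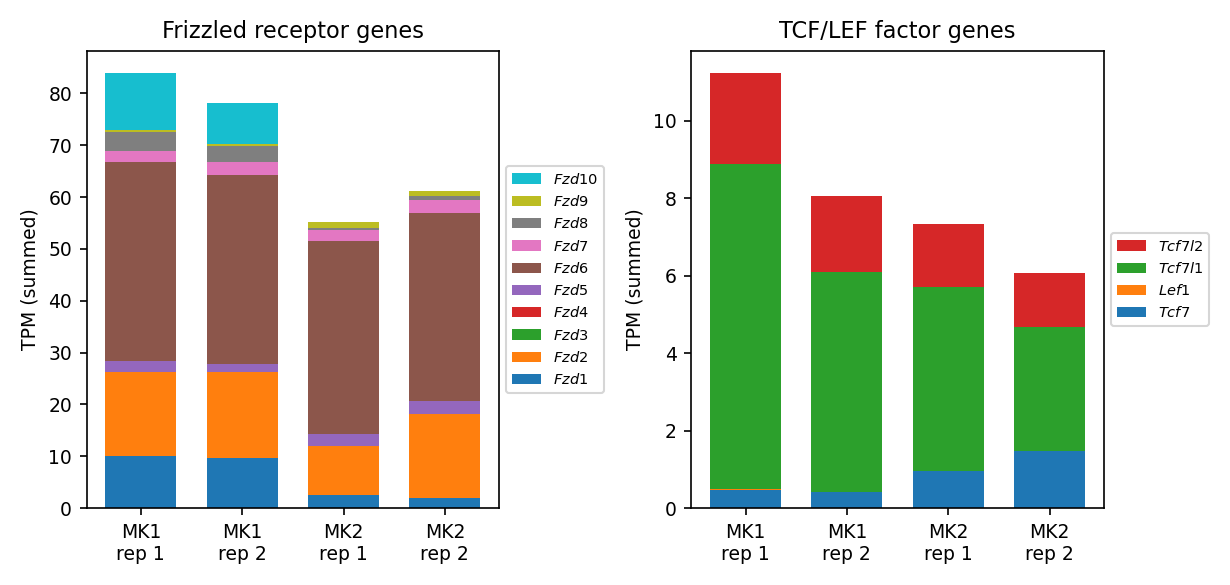
Summed TPM of the Frizzled genes (left) and of the TCF/LEF genes (right) in each of the 4 libraries, with 1 colour per gene. The Fzd6 segment keeps its height across libraries, the Fzd10 segment is seen in MK1 alone, and Tcf7l1 is the largest TCF/LEF segment in every library.

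The other Frizzled genes and co-receptors divided in the same table. Of 16 listed receptor genes, with Fzd6 and Fzd10 among them, 14 were tested, 2 rose, 5 fell and 7 did not pass, and the median log2 change was -0.13. The called share was 50%, close to the 54.6% of all tested genes, whose median was -0.01. Fzd8, a Frizzled receptor, fell from 5.40 ± 0.466 to 0.825 ± 0.380 CPM (mean ± SD, n = 2 cultures, here and in what follows). Fzd1, another of the family, fell from 20.6 ± 0.442 to 4.97 ± 0.788 CPM. Ptk7, a pseudokinase co-receptor linked to planar cell polarity, fell from 269 ± 1.89 to 49.3 ± 24.1 CPM, the MK2 cultures lying at 32.3 and 66.3 CPM. Its log2 change moved from -2.45 to -3.06 without MK2 replicate 2 and to -2.02 without MK2 replicate 1. Ror2, a receptor for Wnt5a, had 59 and 23 counts in the MK1 cultures and 2 and 1 in MK2, a ratio of 25.6-fold over the summed counts (95% counting interval 8.44 to 127). The MK1 cultures were thus uneven, and the log2 change of Ror2 went from -4.54 to -3.82 without MK1 replicate 1 and to -5.16 without MK2 replicate 1. Adjusted p for these 4 lay between 1.92e-04 and 0.00205 by edgeR. Lrp5 and Lrp6, the co-receptors of canonical signalling that were looked up by name after these values were seen, did not pass, with 160 and 129 CPM and 99.1 and 117 CPM (adjusted p = 0.128 and 0.210 by edgeR).

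Of the antagonists, Dkk3 was higher in MK2 and Dkk1 and Sfrp1 were scarcely counted in either line. Dkk3 (chromosome 7, 112116019 to 112159057, 8 exons) encodes a secreted protein of the Dickkopf family that, unlike Dkk1, is not known to bind LRP co-receptors. It had 3 and 4 counts in MK1 and 162 and 221 in MK2, or 0.0987 and 0.149 CPM against 6.44 and 7.80 CPM. The cultures of each line lay close together and the lines did not overlap. The ratio of summed counts was 58.5-fold (95% counting interval 28.1 to 147). The log2 change was 5.81 ± 0.34 (SE derived from the edgeR test statistic, 0.65 in DESeq2, another tool), with adjusted p = 4.71e-05 by edgeR and 8.36e-05 beyond 2-fold. It passed with any 1 library left out (log2 change 5.54 to 6.11).

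Dkk1 (chromosome 19, 30545885 to 30549496, 4 exons), the antagonist whose promoter window held 2 TCF/LEF matches, had 4 and 5 counts in MK1 and 1 and 5 in MK2, or 0.132 and 0.186 against 0.0397 and 0.176 CPM. Sfrp1 (chromosome 8, 23411502 to 23449632, 3 exons), a secreted Frizzled-like protein that binds Wnt ligands, had 1 and 2 counts in MK1 and 2 and 1 in MK2. In both genes the lines overlapped, and at this depth no difference could be seen: with no count filter their log2 changes were -0.48 and 0.09, with 95% intervals of -2.44 to 1.48 and -2.84 to 3.02. The summed Dickkopf level, for Dkk1 to Dkk4, was 0.206 and 0.285 TPM in MK1 and 3.95 and 4.76 TPM in MK2. Dkk3 made up 30.3% and 32.2% of it in MK1 and 98.0% and 96.7% in MK2. Sfrp4, Sfrp5 and Frzb had 0 counts in all 4 libraries, where 0 counts allow up to 0.119 CPM in the smallest library.

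Of the 20 listed antagonists 5 were tested, of which 2 rose, 1 fell and 2 did not pass, with a median log2 change of -0.47, and 5 had 0 counts in all libraries. This called share of 60% was near the 54.6% of all tested genes. Beside Dkk3, Tpbg rose from 12.4 ± 0.321 to 25.8 ± 4.12 CPM (adjusted p = 0.00180 by edgeR); it encodes a membrane glycoprotein that inhibits canonical signalling. Kremen1, a receptor for Dickkopf proteins, fell from 129 ± 9.80 to 78.3 ± 13.5 CPM (adjusted p = 0.00592), which did not pass once MK1 replicate 1 was left out (edgeR adjusted p = 0.0598).

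The feedback genes did not move together. Rnf43 (chromosome 11, 87663087 to 87735539, 10 exons), the ligase that clears Frizzled receptors, had 207 and 189 counts in MK1 and 7 and 12 in MK2. These were 6.81 and 7.04 CPM against 0.278 and 0.423 CPM, and the lines did not overlap. By summed counts the fall was 19.5-fold (95% counting interval 12.3 to 32.7). The log2 change was -4.27 ± 0.28 (SE derived from the edgeR test statistic, 0.48 in DESeq2), with adjusted p = 7.86e-05 by edgeR and 1.76e-04 beyond 2-fold. With any 1 library left out it stayed past the threshold, at -4.62 to -4.02.

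Axin2 (chromosome 11, 108920349 to 108950781, 11 exons), which is widely read as a target of beta-catenin, had 90 and 80 counts in MK1 and 99 and 77 in MK2. These were 2.96 and 2.98 CPM against 3.93 and 2.72 CPM, so that the MK1 cultures lay between the MK2 cultures. The log2 change was 0.16 (95% interval -0.44 to 0.76, adjusted p = 0.619 by edgeR), and it was -0.13 without MK2 replicate 1. Per unit of length, Rnf43 stood at 2.27 and 2.33 times the TPM of Axin2 in the MK1 cultures and at 0.0698 and 0.154 times in MK2. Nkd1 (chromosome 8, 88521344 to 88594887, 11 exons), the Dishevelled-binding inhibitor, had 1 and 0 counts in MK1 and 1 and 1 in MK2, too few for any comparison.

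Of the 20 listed feedback genes and targets, 10 were tested, 5 rose, 3 fell and 2 did not pass, with a median log2 change of 0.24. A called share of 80% among these 10 stood against 54.6% of all tested genes, a difference that was not tested. Znrf3, the closest relative of Rnf43 and a ligase with the same known action on Frizzled receptors, rose from 16.9 ± 0.199 to 31.0 ± 2.93 CPM, and Lgr4, an R-spondin receptor that works with both ligases, from 18.8 ± 2.53 to 41.8 ± 6.24 CPM (adjusted p = 0.00182 and 0.00130 by edgeR). Rnf43 and Znrf3 lie on the same chromosome and differed in opposite directions. Ascl2, a transcription factor of intestinal stem cells, had 3 counts in MK1 and 82 in MK2, 29.2-fold higher (95% counting interval 9.66 to 145, adjusted p = 3.45e-04). Nkd2, the relative of Nkd1, named after its values were seen, had 40 counts in MK1 and 3 in MK2 (adjusted p = 0.00247 by edgeR). Lef1, also named after its values were seen, had 1 count in each line.

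Both TCF factors had lower mean levels in MK2, and the call for Tcf7l1 was a weak one. Tcf7l1 (chromosome 6, 72626380 to 72788956, 13 exons), a mainly repressive TCF factor known from epidermal and hair follicle stem cells, had 336 and 205 counts in MK1 and 165 and 127 in MK2. These were 11.0 and 7.64 CPM against 6.56 and 4.48 CPM. The lines did not overlap, but the MK1 cultures differed from each other by more than the nearest cultures of the 2 lines did. The log2 change was -0.76 (95% interval -1.39 to -0.13, adjusted p = 0.0455 by edgeR). It was lost in 3 of 4 fits that left out a library: that without MK1 replicate 1 gave -0.47 (adjusted p = 0.295), that without MK1 replicate 2 gave -1.0 (adjusted p = 0.0537) and that without MK2 replicate 2 gave -0.52 (adjusted p = 0.140). Its exons share bases with Gm15401 on the other strand, which had 0.149 to 0.230 CPM, and the counting command in the file header names no strand option.

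Tcf7l2 (chromosome 19, 55741810 to 55933655, 17 exons), a TCF factor that also partners beta-catenin, had 154 and 117 counts in MK1 and 92 and 91 in MK2, or 5.07 and 4.36 CPM against 3.66 and 3.21 CPM. The lines did not overlap, and the log2 change of -0.46 did not pass (95% interval -0.96 to 0.04, adjusted p = 0.103 by edgeR). Tcf7l1 stood at 3.57 and 2.86 times the TPM of Tcf7l2 in MK1 and at 2.93 and 2.28 times in MK2, ranges that overlap. Tcf7l1 made up 74.7% and 70.3% of the summed TCF/LEF level in MK1 and 64.7% and 52.5% in MK2. Tcf7l2 made up 20.9% and 24.6% in MK1 and 22.1% and 23.0% in MK2. The remainder was almost wholly Tcf7, at 4.15% and 5.12% in MK1 and 13.2% and 24.2% in MK2.

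Of the 13 listed nuclear factors 11 were tested, 4 rose, 3 fell and 4 did not pass, with a median log2 change of 0.01. Their called share was 63.6%, against 54.6% of all tested genes, and this difference was not tested. Tcf7, a further TCF factor, rose from 0.470 ± 0.0329 to 1.36 ± 0.414 CPM (adjusted p = 0.0109 by edgeR). It did not pass in DESeq2 (adjusted p = 0.0584), nor in edgeR when the first or the second MK1 library was dropped (adjusted p = 0.0771 and 0.0804). Ctnnbip1, an inhibitor that keeps beta-catenin from TCF factors, rose from 10.2 ± 0.600 to 26.8 ± 0.824 CPM (adjusted p = 3.51e-04). Of the 4 Groucho co-repressors tested, Tle1 rose from 7.0 ± 0.103 to 15.2 ± 0.148 CPM and Tle3 fell from 163 ± 16.6 to 88.9 ± 24.1 CPM (adjusted p = 0.00113 and 0.00803 by edgeR, and 0.0732 for Tle3 without MK1 replicate 1). Tle2 and Tle4, named after their values were seen, did not pass (adjusted p = 0.995 and 0.409).

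The order of the 10 genes by TPM differed between the lines mainly through Fzd10, Rnf43 and Dkk3. In MK1 the mean levels ran Fzd6 37.5, Fzd10 9.53, Tcf7l1 7.04, Rnf43 3.36, Tcf7l2 2.17 and Axin2 1.46 TPM, followed by Dkk1, Dkk3, Sfrp1 and Nkd1 under 0.2 TPM. The replicate ranges of Fzd10 and Tcf7l1 overlapped, and the last 4 genes had at most 5 counts in a library. In MK2 they ran Fzd6 36.7, Dkk3 4.23, Tcf7l1 3.97, Axin2 1.56, Tcf7l2 1.51 and Rnf43 0.162 TPM, followed by Dkk1, Fzd10, Sfrp1 and Nkd1. There the ranges overlapped between Dkk3 and Tcf7l1, between Axin2 and Tcf7l2, between Rnf43 and Dkk1, between Dkk1 and Fzd10, between Fzd10 and Sfrp1, and between Sfrp1 and Nkd1. Fzd6 was thus the most abundant of the 10 in both lines, and Dkk3 went from eighth to second place while Fzd10 went from second to eighth.

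Whole chromosomes differ in level between these lines, with a median log2 change of 0.37 on chromosome 4 and -0.41 on chromosome 13. Each change was therefore set beside its surroundings. The 50 tested genes nearest to Fzd10 had a median log2 change of -0.01 (quartiles -0.39 and 0.22), those around Rnf43 0.15 (-0.36 and 0.63) and those around Dkk3 -0.02 (-0.38 and 0.26). These 3 genes lay far outside the quartiles of their neighbours. The neighbours of Tcf7l1 had a median of -0.14 (quartiles -0.55 and 0.28) and those of Tcf7l2 0.16 (-0.13 and 0.42). Both TCF genes were below the lower quartile of their surroundings. Fzd6 and Axin2, at 0.03 and 0.16, were within the quartiles around them, -0.09 to 0.38 and -0.34 to 0.46. So were 3 called genes of the wider lists. They were Ctnnb1 (-0.47, quartiles -0.53 and -0.05), Tnks (0.44, 0.16 and 0.73) and Wnt7b (-0.53, -0.96 and -0.01). Their changes were thus no larger than those common in their regions. The other called genes named from the lists lay outside the quartiles of their neighbours, some of them narrowly. Closest to the quartiles were Tle1 (1.12, upper quartile 1.08), Tle3 (-0.88, lower quartile -0.79) and Wnt10a (-0.46, lower quartile -0.37). The neighbours of Tle1 had a median of 0.79.

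**Figure D3:**
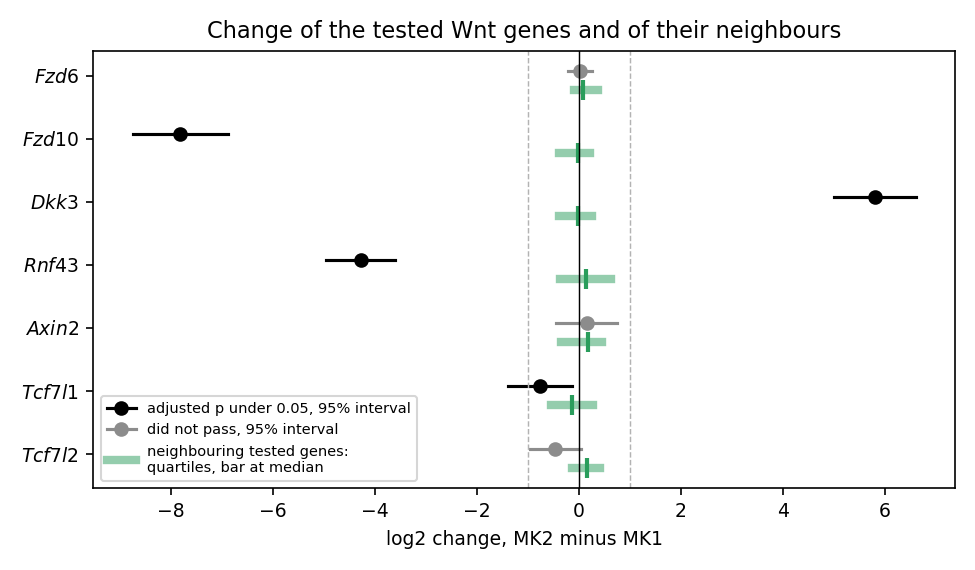
Log2 change (MK2 minus MK1) of the 7 tested genes with its 95% interval (points and lines, black where the adjusted p was under 0.05) and of the 50 tested genes around each (green, quartiles and median). Intervals were derived from the edgeR test statistic, and DESeq2 gave larger SEs for all 7. Dashed lines mark 2-fold changes. Fzd10, Dkk3 and Rnf43 lie beyond them and away from their neighbours, while the interval of Tcf7l1 reaches across the lower one.

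Fzd10 had the largest change of the 10, and the 3 tested genes closest to its pattern over the 4 libraries were C130026I21Rik, Gata6 and Snx10. Closeness was the root mean square difference of log2 CPM, centred on each gene's mean, and came to 0.0624, 0.135 and 0.145. C130026I21Rik had 526 and 301 counts in MK1 and 1 and 2 in MK2. Gata6, a GATA transcription factor, had 375 and 254 counts in MK1 and 0 and 1 in MK2. Snx10, a sorting nexin, had 686 and 577 in MK1 and 3 and 5 in MK2. With 4 libraries in 2 groups, this likeness says little beyond a similar size of difference and a similar gap between the MK1 cultures.

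All 17 listed transducers, which carry the signal inside the cell, were tested. Of them 4 rose, 2 fell and 11 did not pass, a called share of 35.3% against 54.6% of all tested genes, a difference that was not tested. Their median log2 change was 0.10. Ctnnb1, which encodes beta-catenin, fell from 1029 ± 31.9 to 743 ± 51.1 CPM, and Axin1, the constitutive relative of Axin2, rose from 73.5 ± 5.42 to 98.0 ± 6.82 CPM (adjusted p = 0.00945 and 0.0195 by edgeR). Tnks, a tankyrase that destabilises Axin, rose from 73.9 ± 0.740 to 100.4 ± 9.75 CPM (adjusted p = 0.0147). These 3 calls ended without either MK1 replicate (adjusted p = 0.0642 to 0.139), and that of Axin1 also without MK2 replicate 1 (adjusted p = 0.0548). Apc2, a relative of the tumour suppressor Apc, fell from 3.95 ± 1.11 to 0.926 ± 0.186 CPM (adjusted p = 0.00187 by edgeR).

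Of 25 listed genes for Wnt ligands, their secretion and R-spondins, 12 were tested, 1 rose, 3 fell and 8 did not pass, with a median log2 change of -0.29. Their called share was 33.3%, against 54.6% of all tested genes, and this difference was not tested. Wnt4, Wnt7b and Wnt10a fell by 0.88, 0.53 and 0.46 on the log2 scale, and Wnt3a rose by 0.74 (adjusted p = 0.0225, 0.00466, 0.00719 and 0.00892 by edgeR). Without MK1 replicate 1 none of these 4 calls held (adjusted p = 0.0549 to 0.142), and without MK1 replicate 2 that of Wnt7b alone did. Over all 94 listed Wnt pathway genes outside the 10, 59 were tested, 16 rose, 14 fell and 29 did not pass, a called share of 50.8%. That share was close to the 54.6% of all tested genes.

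**Figure D4:**
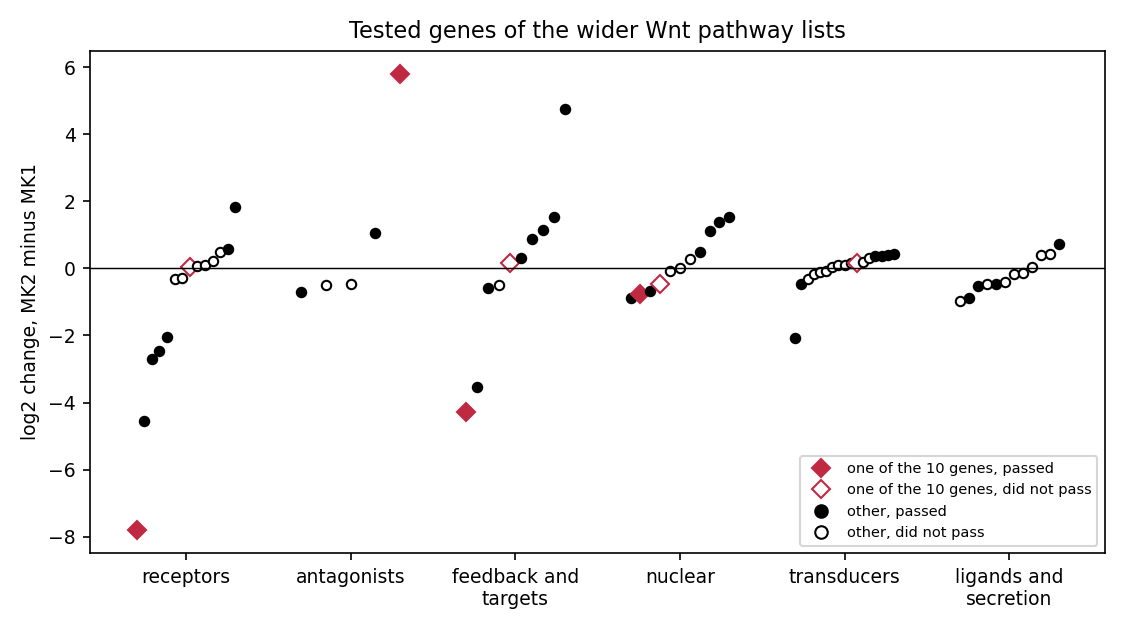
Log2 change (MK2 minus MK1) of every tested gene in the 6 Wnt pathway lists, sorted within each list. Diamonds are genes of the 10 and circles other genes, filled where the adjusted p was under 0.05, and a gene in 2 lists is drawn in both. Fzd10 at -7.81 and Dkk3 at 5.81 are the lowest and highest points, and the transducers other than Apc2 lie between -0.47 and 0.44.

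Markers of the labelled cell type were abundant, and most markers of other cell types were low or absent. All 10 basal keratinocyte markers had 1 CPM or more in every library, with a sum of 26410 to 26700 CPM in MK1 and 20950 to 24220 CPM in MK2, most of it Krt5 and Krt14. Of the 10, Itga6 rose (log2 change 0.83), Cdh1, Col17a1, Dsp, Perp and Dsg3 fell (-1.14, -1.06, -0.81, -0.57 and -0.44), and Krt5, Krt14, Trp63 and Itgb4 did not pass. The 8 leukocyte markers summed to 25.8 to 26.8 CPM in MK1 and 0.318 to 0.397 CPM in MK2. Cd74 led them, at 17.9 and 17.7 CPM in MK1, while Cd3e had at most 1 count in a library. The 5 that were tested all fell: Cd74, Ptprc, Laptm5, Cd79a and Csf1r (-8.20, -6.81, -6.37, -5.64 and -2.62). They passed the count filter through MK1 alone. The 8 fibroblast markers summed to 3.35 to 3.95 CPM in MK1, mainly Pdgfra, and to 1.03 to 1.41 CPM in MK2. Pdgfra fell (log2 change -2.11), and Dcn and Lum were at 0. The 5 melanocyte markers summed to 5.36 to 6.02 CPM in MK1 and 3.54 to 3.99 CPM in MK2. Mitf fell (-2.25), and the lower sum came mainly from it, while Dct was at 0. Tyr went the other way, at 1.58 and 1.16 CPM in MK1 and 1.79 and 2.43 CPM in MK2, and Pmel overlapped between the lines. Neither Tyr nor Pmel passed (adjusted p = 0.119 and 0.382 by edgeR). The 4 endothelial markers summed to 14.9 to 17.8 CPM in MK1 and 25.4 to 27.4 CPM in MK2, nearly all of it Kdr, which rose (0.70), with Cdh5 at 0. The leukocyte, fibroblast and melanocyte sums were lower in MK2, as Fzd10 and Rnf43 were, and the endothelial sum was higher, as Dkk3 was. The part of these markers in the levels of the 3 genes was not tested. The 6 hair follicle markers summed to 69.8 to 87.4 CPM in MK1 and 76.0 to 103 CPM in MK2, with Cd34 at 0. Among them, named after its values were seen, Krt15 differed between the MK2 cultures, at 27.9 and 0.247 CPM.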

How the data were processed

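RNA from 4 cultures (2 of MK1, 2 of MK2) went through Illumina TruSeq library preparation and sequencing, per the labels. The deposited values were raw read counts per gene, not normalised by the authors. Per the file headers, featureCounts 1.4.6-p4 assigned reads to exons of the UCSC mm10 annotation and added them up per gene. The submitters' processing notes name Bowtie2 2.2.6, TopHat2 2.0.13, DESeq2 1.10.1 and featureCounts 1.5.0. The header names no option for strand, read pairs or multiply aligned reads, so counts of overlapping or near-identical genes are uncertain. No count column lacked a sample (0 columns). The command in the header calls the second line MKU where the column names have MK2, and columns were matched by name.

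The test was that of edgeR 4.0.16 (R 4.3.3): filterByExpr (minimum count 10), TMM scaling, quasi-likelihood F test, two-sided, Benjamini-Hochberg adjustment over all tested genes at 0.05, and glmTreat against a log2 change of 1. DESeq2 1.42.0 was an alternative. TPM used the deposited gene lengths. SEs and 95% intervals of log2 changes were derived from the F statistic of the test. DESeq2 gave larger SEs (0.89 against 0.39 for Fzd10), so these intervals can be too narrow where a line has few counts. Intervals of count ratios are exact, at 95%, and like the floor of 3 counts cover counting error only. Replicates of a line differed by more than counting noise (median chi-square per gene 2.87 in MK1 and 4.28 in MK2, 0.455 expected), so none was counted as a copy. The fit was also run on simulated data in which 100 genes differed 2-fold and 100 differed 4-fold. It recovered 91% and 100% of them and called 0.0828% of the unchanged genes. Far fewer genes differed there than were called in these data, and the spread was set by formula. The simulation therefore does not give the error rates of these data.

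The members and lists were chosen with earlier results of these data known. Named beside the 10 genes were up to 4 called genes of each list with the largest change at 1 CPM or more and no overlap of libraries, and the 3 genes closest to the leading member. Alternatives covered scaling, count filters, each library left out (same genes tested), the tool and the replicate number as a block. Protein sequences were not used here.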

Additional observations from a re-analysis of the deposited data

How the results depend on the processing

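The calls for Fzd10, Rnf43 and Dkk3, also beyond 2-fold, held in every alternative run: 3 other scalings, 2 other count filters, DESeq2, each library left out, and both blocks. Leaving out 1 library gave 3 to 4 called members, since Tcf7l1 was lost in 3 of the 4 cases, and 3 members beyond 2-fold each time. Signs turned for 2 genes that were not called, Fzd6 with upper-quartile factors (-0.023) and Axin2, which ran from -0.13 to 0.40 with 1 library left out. Leaving out 1 library gave 3804 to 6748 called genes over the whole table and 13 to 33 of the wider Wnt genes, the lowest without MK1 replicate 1 (3804 and 13) and next without MK1 replicate 2 (4398 and 19). A line with 1 library left is assumed to vary like the other line. Of the values of single genes under the alternatives, 347 kept direction and side of the threshold and 22 lost the call. The replicate number as a block gave 4 called members, 5908 genes and 28 wider Wnt genes, and changed none of the calls of named genes. Differences between replicates correlated at -0.151 between the lines, which gave no sign of a shared replicate effect. Whether cultures of the same number were handled together is not known from the labels. A crossed block, added after the data had been seen, gave 4 members and 7454 genes. Another scaling moved the median of all genes to between -0.07 and -0.01. Genes with under about 10 counts per library (Dkk1, Sfrp1, Nkd1, and Fzd10 and Dkk3 in their low line) are limited by depth: a fold there has a wide counting interval.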

Other observations

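A few scarce Wnt pathway genes had counts in 1 line only and were under the count filter, so they entered no test. Pygo1, a nuclear cofactor of beta-catenin, had 13 and 8 counts in the MK1 cultures and 0 in both MK2 cultures. Bambi, a decoy receptor of the TGF-beta family, had 2 and 10 counts in MK1 and 0 in MK2. Lgr5, the stem cell R-spondin receptor, had 5 and 4 counts in MK1 and 0 in MK2. In the other direction, Fzd4 had 0 counts in MK1 and 2 and 6 in MK2, and the ligand Wnt10b had 0 in MK1 and 1 and 7 in MK2. These genes were picked after their values were seen, and at so few counts their levels are known to within a few fold at best.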
